A study of Mus musculus with 38 samples.

Results

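The response of GL261 cells grown alone to low oxygen was taken from 4 of the series' 38 libraries, the monocultures labelled normoxia (2 libraries) and hypoxia (2 libraries) in the count table that holds the GL261 and BV2 samples. GL261 is a mouse glioma line, and the cells used here stably expressed the plasmid pEGFP-N1, which codes for a green fluorescent protein. Normoxic cells were kept at 21% O2 and hypoxic cells at less than 0.1% O2 with 5% CO2 for 16 h; both carried the plasmid and were fixed on ice in 3% glyoxal before RNA isolation. The libraries were stranded, made from polyadenylated RNA and sequenced as paired ends on an Illumina NovaSeq instrument. The labels describe 2 biological replicates per condition but not whether they came from cultures grown on separate days, so the p-values below measure the spread between these libraries. The cells are a line in culture, without the vessels, immune cells or nutrient gradients of a tumour, and whether they are 1 clone is not given in the sources used here. Elsewhere the series followed BV2 microglia-like cells and bone marrow-derived macrophages, by themselves or sharing a dish with GL261, and those cells under an HDAC inhibitor.

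Cells sense oxygen mainly through enzymes that spend it. Prolyl hydroxylases of the EGLN family mark the alpha subunits of the hypoxia-inducible factors (HIF) for destruction while oxygen is present; without it the subunits persist, pair with ARNT and switch on genes for glucose uptake, glycolysis, vessel growth, pH control and mitophagy. Severe oxygen loss also disturbs protein folding in the endoplasmic reticulum and slows the respiratory chain, which are read by the unfolded protein response and the integrated stress response. In gliomas, regions of low oxygen border necrosis and are known for vessel-forming and invasive cells.

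The deposited totals were 19358000 and 17638000 reads in the normoxic libraries and 27238900 and 17965100 in the hypoxic ones, so 3 reads corresponded to 0.11 to 0.17 CPM. Levels are given as CPM, a gene's count relative to the library total, scaled by the library factors of the fit, in the order replicate 1, replicate 2; as they are not divided by length they compare libraries, not genes. The replicates of a group differed by more than counting noise and no 2 libraries were copies of each other. Of 14 glioma and neural progenitor markers, 11 were measured well enough to test. In the edgeR test described below, 1 of these was called higher in hypoxia and 7 lower (median log2 change -0.55). Among all tested genes 23.2% were called higher and 21.4% lower. The summed level of the 14 was 9322 to 10500 CPM in normoxia and 6544 to 7717 CPM in hypoxia. Sox9 was at 0 in all 4 libraries, and Fabp7 and Tnc stayed under 1 CPM. All 16 microglia and macrophage markers were under 1 CPM in every library (summed 1.53 to 1.92 CPM in normoxia, 1.497 to 1.563 in hypoxia), with Aif1, Itgam, C1qa, C1qb and C1qc at 0. Endothelial markers summed to 1.07 to 1.12 CPM in normoxia and 0.69 to 1.18 in hypoxia, with Cldn5 and Erg at 0, and neuron markers to 2.83 to 3.83 and 2.62 to 3.47 CPM. Of 6 fibroblast and pericyte markers, Lum and Thy1 were at 0, Col1a1 lay between 214 and 343 CPM, and Pdgfrb rose from 1.43 and 1.33 to 7.74 and 6.58 CPM. In bulk RNA, fewer cells of a kind and less RNA per cell cannot be told apart.

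Hypoxia changed the level of many genes in both directions. Of 15189 genes tested, 6777 (44.6%) passed an adjusted p under 0.05, 3522 of them (23.2%) higher and 3255 (21.4%) lower in hypoxia; these shares are the background for every count of genes below. The median change of all tested genes was -0.03 on the log2 scale, that of the genes that rose 0.81 and that of the genes that fell -0.91. Changes of 2-fold or more passed in 1268 genes upward (8.35%) and 1418 downward (9.34%), of 4-fold or more in 311 and 249, and of 8-fold or more in 93 and 38. The genes that rose 4-fold or more took 0.50% and 0.48% of all counts in normoxia and 3.19% and 2.71% in hypoxia; those that fell 4-fold or more took 2.03% and 2.00%, then 0.39% and 0.34%. Calls leaned upward among protein-coding genes (3311 rose, 2817 fell, of 12538), and downward among long noncoding genes (154 rose, 274 fell, of 1649) and pseudogenes (53 rose, 130 fell, of 877). Over all 8 GL261 libraries, co-cultures included, the first principal component held 69.1% of the variance; it placed the normoxic monocultures at -52.1 and -47.6 and the hypoxic ones at 57.8 and 41.4.

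**Figure D1:**
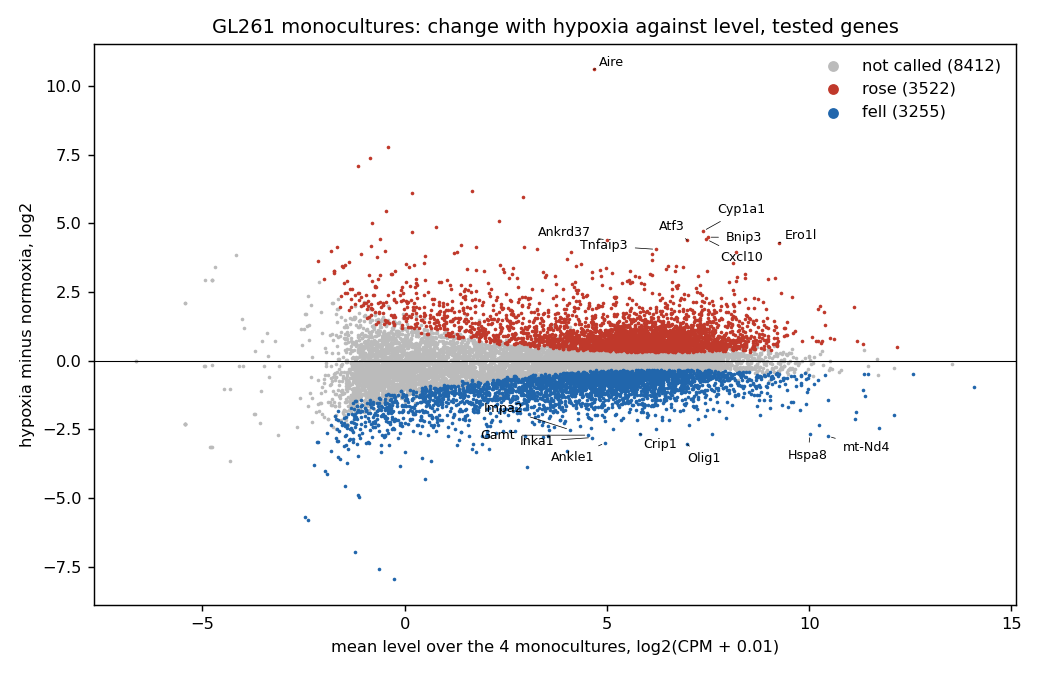
Change of each tested gene (hypoxia minus normoxia, log2, vertical axis) against its mean level over the 4 monocultures (log2 of CPM + 0.01, horizontal axis); red points rose (3522), blue points fell (3255) and grey points were not called (8412). The 8 largest rises and falls among well-expressed genes are named; Aire stands alone at the top, and the other named risers lie near 4 to 5 on the log2 scale.

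The largest rise among well-expressed genes was that of Aire, the transcription factor known for driving tissue antigens in the thymus (mm10 chr10:78030022-78043610, - strand). It had 1 read in 1 normoxic library and 0 in the other, against 54.6 and 47.4 CPM in hypoxia; over the pooled reads the ratio was 1980 (95% exact interval 354 to 78100, counting error only). Cyp1a1, a cytochrome P450 of the aryl hydrocarbon receptor pathway, followed with 15.1 and 9.22 CPM in normoxia and 396 and 245 in hypoxia (log2 change 4.72 ± 0.51, SE, adjusted p = 3.97e-05). Bnip3, a mitophagy receptor (chr7:138890836-138909519, - strand), came next, rising from 16.6 and 13.9 to 371 and 317 CPM (4.50 ± 0.18, adjusted p = 1.6e-07). The chemokine gene Cxcl10, the ankyrin repeat gene Ankrd37, the stress factor Atf3, the disulfide oxidase gene Ero1l and Tnfaip3, which codes for the NF-kappaB inhibitor A20, completed the 8, with log2 changes of 4.42, 4.39, 4.38, 4.29 and 4.05. In each of the 8 both hypoxic libraries lay above both normoxic ones, which the rule that picked them required. For Bnip3 and Ankrd37, 22.3% and 26.4% of the exon bases overlap a gene on the other strand, and whether the counting used strand is not given in the sources used here.

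Olig1, a transcription factor of the oligodendrocyte lineage (chr16:91269772-91271933, + strand), fell furthest among well-expressed genes. It stood at 158 and 293 CPM in normoxia and at 26.1 and 28.9 CPM in hypoxia (log2 change -3.03 ± 0.30, adjusted p = 2.16e-05). Ankle1, an endonuclease gene, went from 51.7 and 58.4 to 5.76 and 8.24 CPM (-2.99 ± 0.19). Inka1, an inhibitor of the kinase PAK4, the mitochondrial transcript mt-Nd4, Gamt, which codes for the last enzyme of creatine synthesis, the constitutive chaperone gene Hspa8, the small LIM protein gene Crip1 and Impa2, an inositol monophosphatase gene, followed with log2 changes between -2.80 and -2.51. Hypoxic libraries lay below normoxic ones in all 8, again a condition of the rule that picked them. Hspa8 shares 32.8% of its 75-base words with other genes, most with the pseudogene Gm15459, and mt-Nd4 shares 61.5%, so how the authors' counting placed such reads bears on their levels.

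The oxygen-sensing machinery itself rose. Of 8 tested HIF subunits and oxygen sensors, 6 rose and none fell, with a median log2 change of 0.67. Egln3, the prolyl hydroxylase gene with the largest rise of the list, went from 10.3 CPM in both normoxic libraries to 82.7 and 63.2 CPM (2.82 ± 0.16, adjusted p = 7.4e-07). Egln1, the main sensor in most cells, went from 84.9 and 88.4 to 227 and 201 CPM (1.31 ± 0.14). Neither gene's groups overlapped. Hif1a, the HIF-1 alpha subunit gene, stood at 43.4 and 69.5 CPM in normoxia and 98.8 and 74.0 CPM in hypoxia (0.62 ± 0.21, adjusted p = 0.0312), and its call was lost without hypoxic replicate 1 (adjusted p = 0.194) or normoxic replicate 1 (0.251). Epas1, which codes for the HIF-2 alpha subunit, had 0 reads in all 4 libraries.

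Glucose uptake and glycolysis rose along nearly the whole pathway. Of 21 tested genes 17 rose and 1 fell, and the median log2 change was 1.43; Pgk1 shares 52.8% of its words with other genes, most with Pgk1-rs7. Slc2a1, the glucose transporter GLUT1, stood at 79.0 and 75.3 CPM in normoxia and 346 and 292 CPM in hypoxia (2.05 ± 0.14, adjusted p = 2.44e-06). Hk2, which traps glucose in the cell by phosphorylation, went from 39.7 and 40.6 to 274 and 231 CPM (2.65 ± 0.14). Pfkl, a subunit of the committing enzyme, went from 124 and 112 to 614 and 511 CPM (2.25 ± 0.14). For these 3 genes both hypoxic libraries lay far above both normoxic ones. Ldha, which turns pyruvate into lactate, went from 583 and 408 to 2216 and 1717 CPM (1.99 ± 0.20). Slc16a3, the lactate exporter MCT4, went from 26.3 and 22.4 to 150.5 and 111 CPM (2.43 ± 0.17). Pdk1, the kinase that shuts pyruvate out of the mitochondrial cycle, had the largest rise of the list, from 19.5 and 20.7 to 231 and 197 CPM (3.41 ± 0.16, adjusted p = 3.26e-07). The exception was Slc2a3, the transporter GLUT3, at 15.5 and 20.1 CPM in normoxia and 13.3 and 7.86 CPM in hypoxia (-0.74 ± 0.23, adjusted p = 0.0229), whose call was lost without hypoxic replicate 2 (0.141) or normoxic replicate 2 (0.176).

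Glycogen and acid-handling genes moved less uniformly. Of 11 glycogen genes 6 rose and 3 fell; 3 rose without hypoxic replicate 1 or without normoxic replicate 1, and 1 fell without normoxic replicate 2. Gys1, the glycogen synthase, went from 34.9 and 41.7 to 203 and 173 CPM (2.29 ± 0.15), and Ppp1r3c, a subunit that directs a phosphatase to glycogen, from 3.47 and 1.71 to 11.4 and 11.3 CPM (2.12 ± 0.32). Pygb, a glycogen phosphorylase, fell by 0.74 on the log2 scale. Of 7 carbonic anhydrases and acid exporters, 1 rose and 1 fell, and 4 rose without hypoxic replicate 2. Car9, the surface carbonic anhydrase used as a hypoxia marker in tumours, rose from 3.42 and 2.08 to 23.3 and 23.6 CPM (3.08 ± 0.24, adjusted p = 6.37e-06). Car12 stood at 3.22 and 3.14 CPM in normoxia and 6.02 and 3.31 in hypoxia and was not called (0.57 ± 0.31, adjusted p = 0.158); without hypoxic replicate 2 the change was 0.93 (adjusted p = 0.0212). The bicarbonate transporter Slc4a7 fell from 42.2 and 63.4 to 21.6 and 19.2 CPM (-1.37 ± 0.19).

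Angiogenic ligands and receptors moved in both directions. Vegfa, the main endothelial growth factor (chr17:46016993-46032369, - strand), stood at 40.5 and 45.8 CPM in normoxia and 504 and 525 CPM in hypoxia, 11.9-fold higher (log2 change 3.58 ± 0.18, adjusted p = 3.75e-07). Of 16 tested genes of the list 5 rose and 6 fell, with a median of 0.27; 3 rose without hypoxic replicate 1 or normoxic replicate 2, and 3 fell without normoxic replicate 1. Adm, the vasodilator adrenomedullin, had the largest fitted rise of the list, from 0.05 and 0.53 to 4.84 and 4.33 CPM (3.97 ± 0.58). Angptl4, an angiopoietin-like regulator of lipid uptake, stood at 13.8 and 9.75, then 39.4 and 19.4 CPM (1.32 ± 0.39, adjusted p = 0.0168), a call lost without hypoxic replicate 1 (0.158) or normoxic replicate 2 (0.106).

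Mitophagy receptors and oxygen-dependent enzymes formed a further block of risers. Of 16 mitophagy and autophagy genes 9 rose and none fell (median 0.50). Besides Bnip3, its relative Bnip3l went from 49.0 and 48.3 to 120 and 115 CPM (1.27 ± 0.12), 16.9% of whose words occur in other genes as well, and the cargo receptor gene Sqstm1 from 321 and 278 to 814 and 835 CPM (1.46 ± 0.14). Of 29 oxygen-dependent demethylases and hydroxylases 20 rose and 1 fell (median 1.03). Kdm3a, a demethylase of histone H3 lysine 9, stood at 104 and 126 CPM in normoxia and 967 and 829 CPM in hypoxia (2.97 ± 0.16, adjusted p = 6.4e-07). P4ha1, a collagen prolyl hydroxylase subunit, stood at 128 and 118, then 1072 and 943 CPM (3.03 ± 0.14, adjusted p = 3.5e-07). In both genes the hypoxic level was several times the normoxic one in each library. Kdm6b, a demethylase of histone H3 lysine 27, rose by 1.98 ± 0.17, Kdm4c by 1.03 ± 0.17 and the collagen lysyl hydroxylase gene Plod2 by 1.54 ± 0.14. P4ha3, another collagen prolyl hydroxylase subunit, fell from 194 in both normoxic libraries to 98.6 and 112 CPM (-0.88 ± 0.12).

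HIF binds DNA at a core word written ACGTG or GCGTG, and promoter windows were read for ACGTG as a description of the genes above. The windows run from 250 bases before to 50 after a RefSeq transcript start (build GRCm38.p6). Shown are the 5 genes with the largest fitted rise among the called key genes of the pathway lists whose window holds the word. Cxcl1 is among them through a fitted change from 0 reads that depends on the prior count; 55 of the 69 key genes that rose had a window. Capitals mark ACGTG or its reverse complement CACGT, and in Bnip3 the marks on the 2 strands overlap as CACGTG.
Cxcl1 (chr5:90890995-90891294, + strand, word 196 bases before the start): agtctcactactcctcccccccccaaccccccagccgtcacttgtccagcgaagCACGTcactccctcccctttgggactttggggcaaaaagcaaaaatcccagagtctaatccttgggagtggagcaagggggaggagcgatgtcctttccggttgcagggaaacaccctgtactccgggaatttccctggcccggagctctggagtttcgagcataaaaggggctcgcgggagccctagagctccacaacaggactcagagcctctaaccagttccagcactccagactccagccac
Bnip3 (chr7:138909457-138909756, - strand, words 108 and 107 bases before the start): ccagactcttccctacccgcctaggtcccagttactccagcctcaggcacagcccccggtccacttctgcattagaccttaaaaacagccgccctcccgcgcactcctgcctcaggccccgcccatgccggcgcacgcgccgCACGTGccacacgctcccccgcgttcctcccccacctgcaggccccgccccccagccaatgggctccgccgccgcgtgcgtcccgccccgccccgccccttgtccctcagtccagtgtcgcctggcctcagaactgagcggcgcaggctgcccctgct
Ero1l, named Ero1a in RefSeq (chr14:45318523-45318822, - strand, word 63 bases before the start): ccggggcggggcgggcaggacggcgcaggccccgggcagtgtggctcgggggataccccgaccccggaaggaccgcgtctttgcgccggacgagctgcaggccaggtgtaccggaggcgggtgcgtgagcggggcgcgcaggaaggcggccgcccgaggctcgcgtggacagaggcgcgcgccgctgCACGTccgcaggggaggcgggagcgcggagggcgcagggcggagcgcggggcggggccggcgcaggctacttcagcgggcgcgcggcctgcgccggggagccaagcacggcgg
Vegfa (chr17:46025114-46025413, - strand, word 211 bases before the start; 1 of the gene's 2 windows, around a start inside the gene): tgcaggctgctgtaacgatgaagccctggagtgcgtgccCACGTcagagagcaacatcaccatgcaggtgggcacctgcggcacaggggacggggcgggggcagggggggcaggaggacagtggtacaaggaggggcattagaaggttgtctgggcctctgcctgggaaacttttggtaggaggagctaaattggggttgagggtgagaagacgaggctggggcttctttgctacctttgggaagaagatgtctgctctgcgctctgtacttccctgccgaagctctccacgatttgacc
Ddit3 (chr10:127290543-127290842, + strand, word 21 bases after the start): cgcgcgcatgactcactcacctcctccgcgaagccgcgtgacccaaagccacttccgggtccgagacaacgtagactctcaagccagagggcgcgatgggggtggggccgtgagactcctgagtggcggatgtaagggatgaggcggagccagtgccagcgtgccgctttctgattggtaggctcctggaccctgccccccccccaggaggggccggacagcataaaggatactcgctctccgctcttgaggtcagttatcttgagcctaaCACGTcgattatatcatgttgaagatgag

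The word was common. It was present in 19.6% of all 32851 windows of the table and in 25.7% of the 8448 tested genes with a single window. Among those genes it was in 30% of the 180 that rose 4-fold or more, 29.7% of those that rose 2- to 4-fold, 30% of those that rose less, 24.3% of those not called, and 14.9% of the 87 that fell 4-fold or more. The last group also had a lower GC content, with a median of 57.7% against 61% over all these windows. For GCGTG the shares were 51.7% in the genes that rose 4-fold or more, 52.5% in all these genes and 39.1% in those that fell 4-fold or more. For the longer palindrome CACGTG the shares were 10.6% in the genes that rose 4-fold or more and 10.2% in all. A match is a run of letters, not evidence of binding.

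The unfolded protein and integrated stress responses rose almost throughout. Of 26 tested genes 22 rose and none fell, and the median log2 change was 1.70. Ddit3, the stress factor CHOP, stood at 20.9 and 14.2 CPM in normoxia and 161 and 219 CPM in hypoxia (3.44 ± 0.20, adjusted p = 8.66e-07). Trib3, a pseudokinase downstream of it, went from 33.8 and 31.02 to 253 and 293 CPM (3.07 ± 0.15). Atf3 went from 14.0 and 9.22 to 277 and 207 CPM (4.38 ± 0.24). In these 3 transcripts of the stress pathway the replicates of a group lay close together beside the gap between the groups. Atf4, the factor at the head of the integrated stress response, rose from 520 and 497 to 1018 and 1159 CPM (1.10 ± 0.14), and its target Asns, asparagine synthetase, from 92.4 and 106 to 299 and 299 CPM (1.59 ± 0.13). Hspa5, the endoplasmic reticulum chaperone BiP, rose from 880 and 934 to 3411 and 3550 CPM (1.94 ± 0.15), and Ero1l, which makes disulfide bonds there with oxygen as acceptor, from 54.9 and 63.4 to 1110 and 1212 CPM (4.29 ± 0.19, adjusted p = 3.26e-07).

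**Figure D2:**
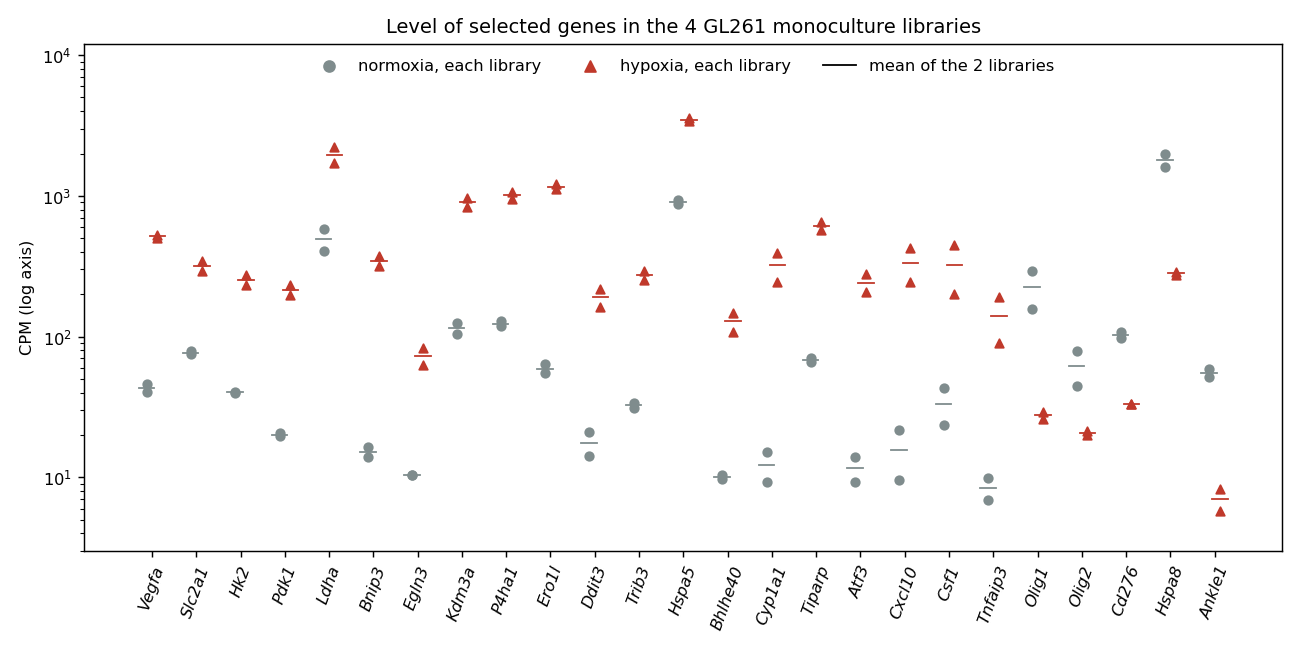
Level (CPM, log axis) of 25 named genes in each normoxic (grey circles) and hypoxic (red triangles) GL261 monoculture, with short lines at the mean of the 2 libraries. Hypoxic libraries lie above normoxic ones in the first 20 genes, Vegfa to Tnfaip3, and below them in the last 5, Olig1 to Ankle1; Csf1 and Tnfaip3 show the widest gaps between hypoxic replicates.

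Clock genes and the aryl hydrocarbon receptor pathway rose as well. Of 16 tested clock genes 15 rose and none fell (median 1.31). Bhlhe40, a repressor of the clock and a known HIF target, stood at 10.3 and 9.75 CPM in normoxia and 148 and 109 CPM in hypoxia (3.67 ± 0.17, adjusted p = 3.26e-07). Per1 went from 30.4 and 24.4 to 191 and 145 CPM (2.62 ± 0.17), and Nr1d1, the repressor REV-ERB alpha, from 88.9 and 35.9 to 332 and 215 CPM (2.13 ± 0.39). Of 9 aryl hydrocarbon receptor genes, a pathway that shares ARNT with HIF, 6 rose and 1 fell (median 1.94), and none fell without normoxic replicate 1. Ahr, the receptor, went from 37.1 and 36.7 to 164 and 118 CPM (1.94 ± 0.19). Tiparp, which restrains the receptor, went from 65.9 and 70.7 to 653 and 576 CPM (3.17 ± 0.19), and Cyp1b1 from 3.32 and 2.51 to 10.9 and 12.9 CPM (2.03 ± 0.31). The member that fell, Nqo1, a quinone reductase of both this and the NRF2 list, stood at 45.5 and 20.3, then 13.5 and 8.56 CPM (-1.57 ± 0.36, adjusted p = 0.00438), and lost its call without normoxic replicate 1 (0.071).

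NRF2 antioxidant genes split. Of 17 tested, 4 rose and 9 fell (median -0.52). Hmox1, heme oxygenase, rose from 33.5 and 22.01 to 135 and 137 CPM (2.29 ± 0.18), and Slc7a11, the cystine importer, from 2.56 and 1.60 to 23.2 and 15.5 CPM (3.22 ± 0.28). Thioredoxin (Txn1) fell from 279 and 186 to 77.7 and 59.5 CPM (-1.76 ± 0.20). Of 11 iron genes 4 rose and 2 fell; 1 rose without hypoxic replicate 1 or without normoxic replicate 1. Tfrc, the transferrin receptor, rose from 96.5 and 122 to 271 and 179 CPM (1.05 ± 0.19), and Steap3, an iron reductase, fell by 1.28 on the log2 scale. Fth1, ferritin heavy chain, overlapped between the groups (476 and 238, then 307 and 238 CPM) and was not called (-0.39 ± 0.28, adjusted p = 0.281); without normoxic replicate 2 the change was -0.77 (adjusted p = 0.0241).

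**Figure D3:**
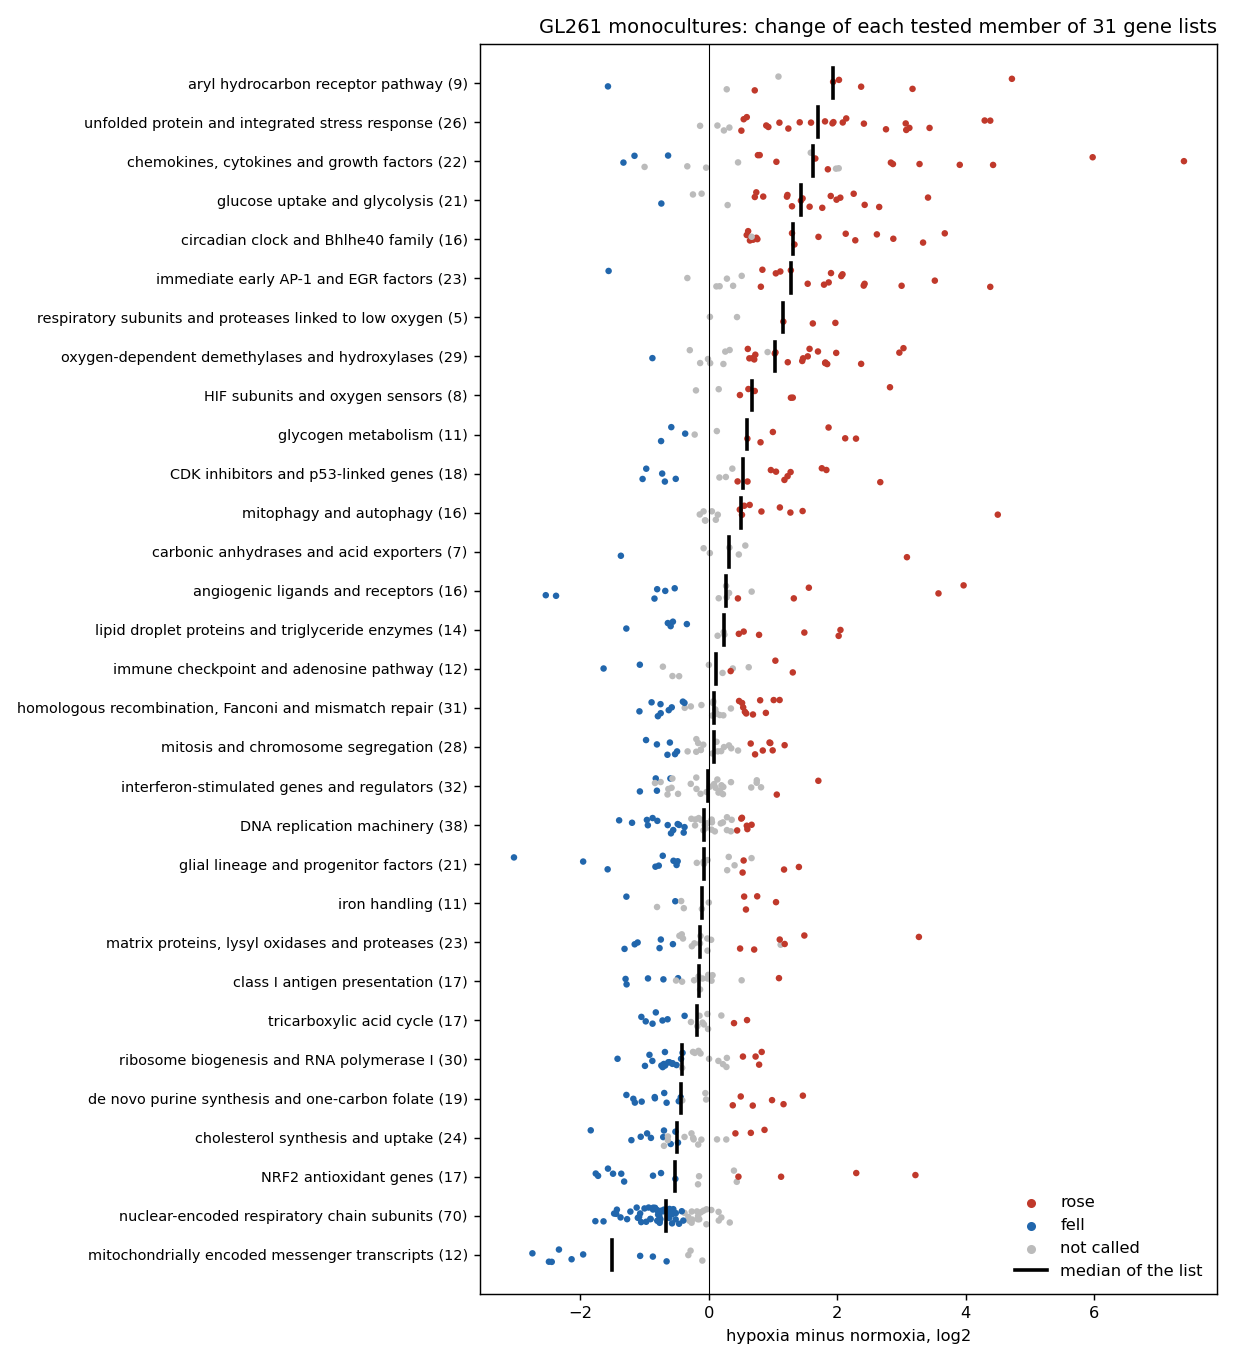
Log2 change (hypoxia minus normoxia) of each tested member of the 31 gene lists, one row per list with the number tested in brackets, ordered by the list's median (black bar); red points rose, blue fell, grey were not called. Stress response, glycolysis and clock genes lie almost wholly to the right of 0, and respiratory chain subunits and mitochondrial transcripts to the left, with medians from 1.94 to -1.51.

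Respiratory chain transcripts fell, whether encoded in the nucleus or in the mitochondria. Of 70 tested nuclear-encoded subunits 50 fell and none rose (median -0.67); without normoxic replicate 1, 30 fell and 1 rose. By complex, 25 of 37 subunits of complex I, 1 of 4 of complex II, 5 of 9 of complex III, 10 of 10 of complex IV, 8 of 9 of ATP synthase and the gene of cytochrome c fell. Uqcr11, a small complex III subunit, had the largest fall, from 162 and 110 to 39.9 and 40.2 CPM (-1.77 ± 0.18, adjusted p = 2.58e-05). Cox4i1, a subunit of complex IV, went from 346 and 264 to 199 and 196 CPM (-0.62 ± 0.15), a call lost without normoxic replicate 1 (adjusted p = 0.0665). Sdhb of complex II stood at 122 and 94.7, then 104 and 89.1 CPM, and was not called (adjusted p = 0.442). For most of these genes normoxic replicate 1 was the highest of the 4 libraries. The opposite direction was seen in a short list of proteins linked to low oxygen, of which 3 of 5 rose: Lonp1, the matrix protease, went from 146 and 129 to 421 and 423 CPM (1.62 ± 0.13), and Higd1a, a complex IV assembly factor, from 41.3 and 28.5 to 148 and 126 CPM (1.97 ± 0.19). Cox4i2, the alternative complex IV subunit, stayed at or under 0.11 CPM and was not tested.

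Of 12 tested mitochondrially encoded messenger transcripts, 9 fell and none rose (median -1.51). Some of the 9 are transcripts at low level whose sequence occurs almost wholly in other genes as well, named at the end of this paragraph. All genes of the mitochondrial chromosome together took 3.85% and 3.96% of the counts in normoxia and 1.76% and 2.02% in hypoxia. mt-Nd4 stood at 2463 and 2452 CPM in normoxia and 405 and 328 CPM in hypoxia (-2.75 ± 0.16, adjusted p = 7.28e-07). mt-Nd1 went from 5994 and 5408 to 1216 and 879 CPM (-2.44 ± 0.20), and mt-Cytb from 6761 and 7174 to 1760 and 1832 CPM (-1.96 ± 0.15). In these 3 every hypoxic library lay far below every normoxic one. mt-Co1 stood apart: at 12340 in both normoxic libraries and 10840 and 12180 CPM in hypoxia it was not called (-0.10 ± 0.17, adjusted p = 0.662). Other annotated genes share sequence with these transcripts, and how the counting placed such reads is not given in the sources used here: mt-Co1 shares 39.8% of its words, and mt-Co2, mt-Co3, mt-Atp6, mt-Nd3 and mt-Nd4l share 97.8% or more with other genes; the last 5 had at most 17.5 CPM.

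**Figure D4:**
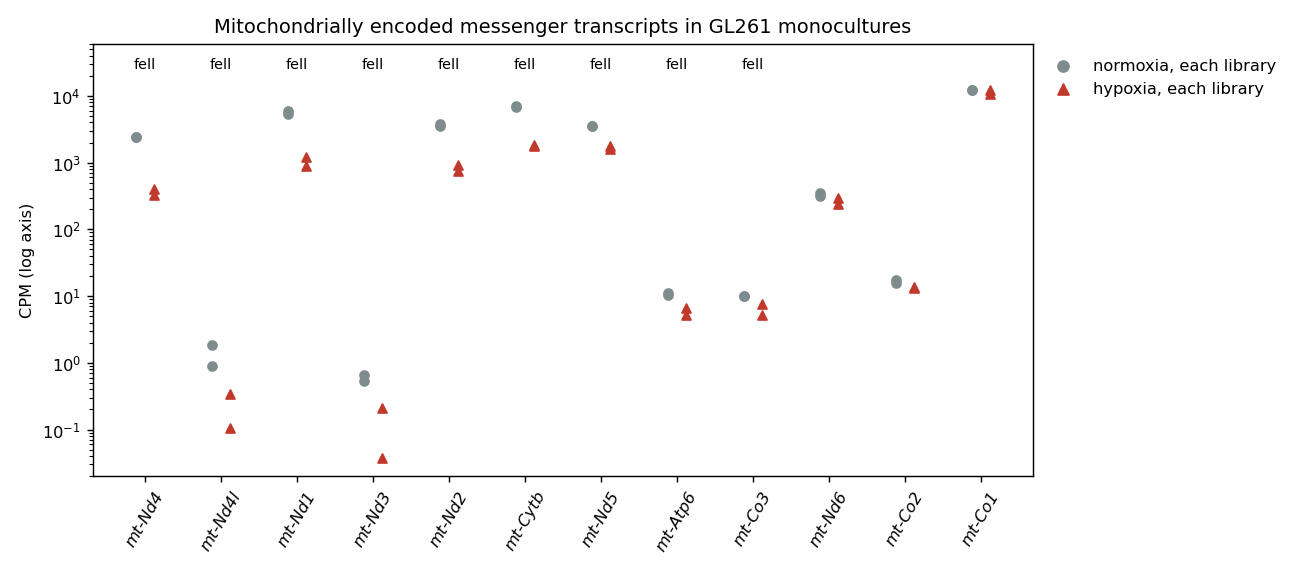
Level (CPM, log axis) of the 12 tested mitochondrially encoded messenger transcripts in each normoxic (grey circles) and hypoxic (red triangles) GL261 monoculture, ordered by their change; "fell" marks the 9 that passed the test. mt-Nd6, mt-Co2 and mt-Co1, on the right, did not pass, and mt-Co1 stays between 10840 and 12340 CPM.

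Carbon and lipid metabolism around the mitochondria shifted in part. Of 17 genes of the tricarboxylic acid cycle and its entry, 2 rose and 7 fell (median -0.18); 1 rose without hypoxic replicate 1, without normoxic replicate 2 or in a fit of the 4 monocultures alone. Idh2, mitochondrial isocitrate dehydrogenase, fell from 154 and 121 to 70.1 and 62.7 CPM (-1.05 ± 0.15), while citrate synthase (Cs) stood at 417 and 383, then 357 and 303 CPM and was not called (adjusted p = 0.113). Dld, the dehydrogenase subunit that several such complexes share, rose by 0.59 ± 0.13. Of 24 cholesterol synthesis and uptake genes 3 rose and 10 fell (median -0.50); 1 rose without hypoxic replicate 1, and 6 fell without hypoxic replicate 2 or normoxic replicate 1. Sqle, squalene epoxidase, an oxygen-using step, fell from 188 and 210 to 121 and 83.2 CPM (-0.96 ± 0.17). Its groups did not overlap. Of 14 lipid droplet and triglyceride genes 6 rose and 5 fell; 2 fell without hypoxic replicate 1 and 3 without either normoxic replicate. Fabp3, a fatty acid carrier, rose by 2.05 ± 0.25 and its relative Fabp5 fell by 1.28 on the log2 scale. Hilpda, a HIF target on lipid droplets in many cells, stood at 16.6 and 15.1, then 18.3 and 19.0 CPM (0.23 ± 0.15, adjusted p = 0.235) and was not called.

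Cell cycle genes did not move as a block. Of 38 replication genes 6 rose and 13 fell (median -0.07), of 28 mitosis genes 7 rose and 6 fell (median 0.09), and of 31 repair genes 10 rose and 9 fell (median 0.09). Without hypoxic replicate 1, 6 repair genes rose and 4 fell, and 4 fell without normoxic replicate 2. Tk1, thymidine kinase, fell from 136 and 113 to 48.2 and 46.4 CPM (-1.40 ± 0.14), and Rrm2, a subunit of ribonucleotide reductase, from 134 and 118 to 80.1 and 50.2 CPM (-0.95 ± 0.19). Helicase subunits Mcm2 (152 and 132, then 165 and 127 CPM) and Mcm5 (164 and 147, then 205 and 149 CPM) were not called. Cdk1, the mitotic kinase, fell from 340 and 296 to 216 and 191 CPM (-0.64 ± 0.14), and the checkpoint gene Mad2l1 fell by 0.98 on the log2 scale. Cenpe, a kinetochore motor, rose from 207 and 191 to 569 and 333 CPM (1.18 ± 0.24). Mki67, the proliferation marker Ki-67, stood at 814 and 931, then 1698 and 1175 CPM (0.72 ± 0.19, adjusted p = 0.0101), a call lost without hypoxic replicate 1 (0.0694) or normoxic replicate 1 (0.0663). Brca1 rose from 57.4 and 61.8 to 150 and 106 CPM (1.10 ± 0.16).

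The list of 18 CDK inhibitors and p53-linked genes had 10 members higher and 5 lower (median 0.53), and fewer were lower without hypoxic replicate 1. Its CDK inhibitors were not counted apart from the p53-linked genes. Cdkn1a, the inhibitor p21, went from 125 and 106 to 423 and 360 CPM (1.76 ± 0.15, adjusted p = 1.14e-05). Ccng2, an unusual cyclin linked to arrest, went from 56.0 and 64.6 to 237 and 192 CPM (1.83 ± 0.14), and Mdm2, which degrades p53, from 102 and 106 to 255 and 216 CPM (1.18 ± 0.14). Cdkn2c, the inhibitor p18, fell from 82.6 and 93.5 to 42.9 and 43.3 CPM (-1.03 ± 0.12). Groups did not overlap in any of these 4 genes.

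Growth pathways leaned downward. Of 19 purine synthesis and folate genes 6 rose and 10 fell (median -0.44), and of 30 ribosome biogenesis genes 4 rose and 16 fell (median -0.42). Gart, which carries out several early purine steps, fell from 120 and 109 to 53.4 and 47.8 CPM (-1.18 ± 0.12), with 19.7% of its exon bases overlapping a gene on the other strand, and the cytosolic folate enzyme Mthfd1 fell by 1.28 ± 0.12. The mitochondrial folate enzyme Mthfd2 rose from 96.9 and 104 to 235 and 214 CPM (1.16 ± 0.12). Nhp2, a subunit of the RNA-modifying particles of the nucleolus, fell from 125 and 86.5 to 40 and 38.9 CPM (-1.42 ± 0.21), and Polr1b, a core subunit of RNA polymerase I, fell by 0.74 ± 0.13 on the log2 scale. Nop14 rose by 0.82 ± 0.14, and Myc, whose product drives many of these genes, from 230 and 284 to 430 and 420 CPM (0.73 ± 0.16, adjusted p = 0.0037).

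Secreted factors that could be tested rose more often than they fell, some with wide spread between the hypoxic replicates. Of 37 chemokines, cytokines and growth factors listed, 18 stayed under 1 CPM in all 4 libraries, 7 of them at 0 reads. Of the 22 tested, 12 rose and 3 fell (median 1.62). Cxcl10, a T-cell chemokine, stood at 21.6 and 9.54 CPM in normoxia and 426 and 245 CPM in hypoxia (4.42 ± 0.49, adjusted p = 5.11e-05). Csf1, the growth factor of macrophages and microglia, stood at 43.4 and 23.5, then 449 and 201 CPM (3.28 ± 0.52, adjusted p = 0.000472). Hypoxic replicate 1 was the higher one in both genes and each group lay clear of the other. Cxcl1, a neutrophil chemokine, had 0 reads in both normoxic libraries and 1.79 and 0.37 CPM in hypoxia, at least 6.77-fold higher when the normoxic libraries are set at 3 reads each; its call (adjusted p = 0.0131) was lost without hypoxic replicate 1 (0.0946), normoxic replicate 1 (0.0685) or normoxic replicate 2 (0.0591). Ccl2, a monocyte chemokine, stood at 1.23 and 0.85, then 12.3 and 2.35 CPM (adjusted p = 0.0308), and lost its call without hypoxic replicate 1 (0.404), normoxic replicate 1 (0.116) or normoxic replicate 2 (0.143) and in DESeq2 (0.0528). Mif, an inflammatory cytokine, rose from 437 and 281 to 565 and 655 CPM (0.76 ± 0.19), with 28.2% of its words shared. Tgfa, a ligand of the EGF receptor, fell from 128 and 133 to 63.6 and 40.05 CPM (-1.33 ± 0.21). Il6 stayed under 1 CPM and was not called (adjusted p = 0.21).

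Immediate early genes rose, with 16 of 23 higher and 1 lower (median 1.28); 2 were lower without hypoxic replicate 1. Fos and Jun, the AP-1 partners, went from 46.6 and 65.8 to 183 and 237 CPM (1.90 ± 0.23) and from 208 and 215 to 770 and 769 CPM (1.87 ± 0.14). Ier3 rose by 2.41 ± 0.31, and the factor Klf2 fell from 22.3 and 24.0 to 7.51 and 8.24 CPM (-1.56 ± 0.23).

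Few interferon-stimulated genes passed the test. Of 32 tested, 2 rose and 4 fell, and the median was -0.01; 1 fell without normoxic replicate 1 and 7 without normoxic replicate 2. With no filter on low counts 6 rose and 8 fell. Ifit1, an inhibitor of viral translation, stood at 14.7 and 9.44 CPM in normoxia and 8.08 and 6.2 CPM in hypoxia (-0.75 ± 0.31); it missed the threshold but passed in DESeq2 (adjusted p = 0.0353), with no filter (0.00362), in a fit of the 4 monocultures alone (0.0342) and without normoxic replicate 2 (0.0485). Irf1, a regulator that stress signals also induce, rose from 82.4 and 86.0 to 304 and 245 CPM (1.71 ± 0.17, adjusted p = 3.03e-05). Irf7 (19.5 and 15.8, then 19.1 and 15.2 CPM) overlapped between the groups and was not called. Of 17 class I antigen presentation genes 1 rose and 5 fell; H2-K1 rose from 60.6 and 53.7 to 137 and 107 CPM (1.09 ± 0.19), the nonclassical H2-T23 fell by 1.30 on the log2 scale, and B2m was not called (233 and 153, then 199 and 161 CPM). H2-D1 stood at 138 and 103, then 200 and 144 CPM (adjusted p = 0.0961). It passed in edgeR with no filter (adjusted p = 0.0028) and in DESeq2 (0.0487), so that 2 genes of the list rose there. Without hypoxic replicate 2 its log2 change was 0.74.

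Of 12 checkpoint and adenosine pathway genes 3 rose and 2 fell. Cd276, the ligand B7-H3, fell from 97.6 and 108 to 33.1 and 33.0 CPM (-1.64 ± 0.14, adjusted p = 1.01e-05), with 11.4% of its exon bases overlapping a gene on the other strand. Cd47, which restrains phagocytes, rose from 87.1 and 81.6 to 194 and 152 CPM (1.04 ± 0.17), and Pvr, a ligand of natural killer and T-cell receptors, from 82.4 and 77.5 to 237 and 159 CPM (1.31 ± 0.18). Cd274, the ligand PD-L1, stood at 3.27 and 3.20, then 4.80 and 3.53 CPM and was not called (0.37 ± 0.25, adjusted p = 0.253). The groups of Cd276, Cd47 and Pvr did not overlap.

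Lineage and matrix genes changed member by member. Of 21 glial lineage and progenitor genes 4 rose and 9 fell (median -0.08). Olig2, the partner of Olig1, fell from 44.4 and 78.7 to 21.3 and 20 CPM (-1.57 ± 0.25, adjusted p = 0.000501), while Nes, the intermediate filament of progenitors, was not called (812 and 851, then 940 and 631 CPM). In both Olig genes normoxic replicate 2 was the highest library and the hypoxic libraries lay close together. Sox2, a stem cell factor, stood at 329 and 434, then 501 and 611 CPM (0.54 ± 0.17, adjusted p = 0.024), a call lost without hypoxic replicate 2 (0.12), without normoxic replicate 1 (0.171) or in a fit of the 4 monocultures alone (0.0528). Hes1, a Notch target, rose from 13.03 and 14.5 to 40.7 and 32.0 CPM (1.40 ± 0.19). Of 23 matrix genes 6 rose and 6 fell (median -0.14). The lysyl oxidase gene Loxl3 fell from 253 and 235 to 109 and 87.1 CPM (-1.31 ± 0.16). Lox itself had 0 reads in all 4 libraries. Fn1, fibronectin, stood at 410 and 425, then 1279 and 614 CPM (1.18 ± 0.34, adjusted p = 0.0162); the call was lost without hypoxic replicate 1 (0.163), normoxic replicate 1 (0.0846) or normoxic replicate 2 (0.0603) and in DESeq2 (0.0527). Over the 31 lists, 639 of the 701 genes could be tested, of which 214 rose and 193 fell.

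The same treatment was given to BV2, a mouse microglia-like line grown alone in 4 libraries, and the difference between the lines' changes was tested as an interaction. Of 16882 genes tested over both lines, 6322 (37.4%) differed, 3163 (18.7%) with a more positive change in GL261 and 3159 (18.7%) with a more negative one, around a median difference of -0.15. Proliferation and growth genes stood out by count. GL261 medians in this paragraph and the next come from the fit of 16 libraries and the genes tested in it. They therefore differ slightly from those given above. Of 28 mitosis genes 27 changed more positively in GL261, with a median change of 0.11 in GL261 and -1.50 in BV2, as did 32 of 38 replication genes (-0.05 and -1.25), 24 of 30 ribosome biogenesis genes (-0.40 and -1.56) and 20 of 31 repair genes (0.11 and -0.71). Cdk1 stood at 129 and 115 CPM in normoxic BV2 and 52.1 and 39.2 CPM in hypoxic BV2, and its interaction was 0.79 ± 0.22 (adjusted p = 0.00728). Brca1, which rose in GL261, stood at 85.8 and 104, then 62.4 and 76.7 CPM in BV2 (interaction 1.57 ± 0.26, adjusted p = 9.99e-05). Mitochondrial transcripts went the other way, with 10 of 12 more negative in GL261 (median -1.49, against 0.17 in BV2). mt-Nd4 stood at 1106 and 1475 CPM in normoxic and 1511 and 1417 CPM in hypoxic BV2 (interaction -2.91 ± 0.22, adjusted p = 3e-08). Of 24 cholesterol genes 13 were more negative in GL261 (median -0.48, against 0.46 in BV2).

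Differences between the lines went both ways in the glycolysis and stress response lists. Of 22 glycolysis genes 5 were more positive and 9 more negative in GL261, with medians of 1.39 in GL261 and 1.52 in BV2, and of 26 stress response genes 4 and 11, with medians of 1.72 and 2.02. The change of Vegfa did not differ between the lines by this test (BV2 38.7 and 47.8, then 409 and 428 CPM; interaction 0.32 ± 0.21, adjusted p = 0.265). Egln3 rose less in GL261, as BV2 went from 9.32 and 8.42 to 453 and 476 CPM (interaction -2.87 ± 0.23, adjusted p = 7.4e-08). Among single well-expressed genes the most positive interactions were those of the transcription factor gene Atoh8 (6.23 ± 0.39), Cxcl10 (4.37 ± 0.83), the mitochondrial protein gene Rtn4ip1 (4.26 ± 0.22), the matrix protein gene Thbs1 (4.19 ± 0.81) and the helicase gene Pif1 (3.92 ± 0.30). Atoh8 rose in GL261 from 29.4 and 26.3 to 141 and 119 CPM and stood at 2.08 and 3.03, then 0.19 and 0.12 CPM in BV2. Well-expressed here means on average over both lines, and Atoh8 and Cxcl10 were low in the BV2 monocultures. In hypoxic BV2, 3 reads corresponded to 0.16 to 0.17 CPM, so the size of the Atoh8 interaction rests on few reads there.

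**Figure D5:**
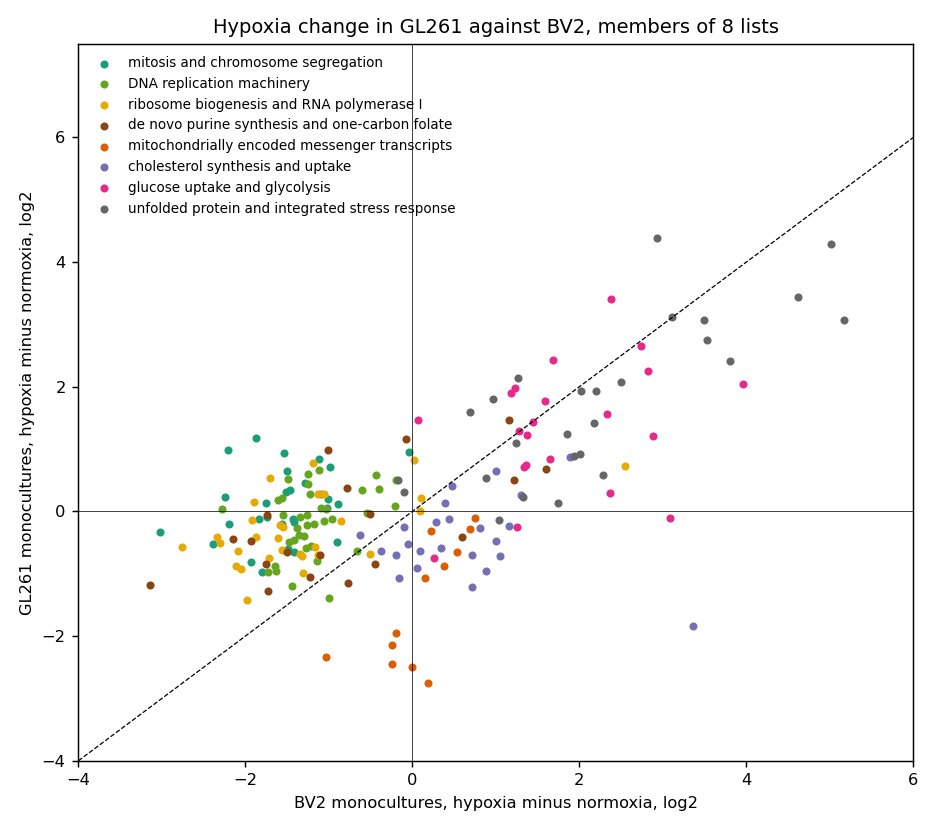
Log2 change with hypoxia in GL261 monocultures (vertical axis) against that in BV2 monocultures (horizontal axis) for members of 8 gene lists, in colours; the dashed line marks equal change. Mitosis, replication and ribosome biogenesis genes lie mostly above the line, with BV2 medians of -1.50, -1.25 and -1.56, and mitochondrial transcripts lie below it.

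GL261 cells were also grown in direct co-culture with BV2 under the same conditions, at 2 GL261 cells per BV2 cell, and gave 4 further libraries. How the GL261 RNA of co-cultures was obtained is not given in the sources used here. In those libraries, which share none with the monocultures, hypoxia changed 7965 of the 15189 genes (52.4%), 26.8% higher and 25.6% lower. Both comparisons called 5727 genes in the same direction, 84.5% of the monoculture calls and 71.9% of the co-culture calls, and 3 genes in opposite directions. Pearson's r of the 2 sets of log2 changes was 0.86 over 15189 genes, which are not independent and were fitted with a shared dispersion. The interaction itself, a change with hypoxia that differs between monoculture and co-culture, passed in 0 genes in edgeR (0%; smallest adjusted p = 0.344), with 1354 genes under an unadjusted p of 0.05 and 48 genes in DESeq2; this does not show that the responses were alike. By list, the medians were 1.43 in monoculture and 1.60 in co-culture for glycolysis, 1.70 and 1.52 for the stress response, -0.67 and -1.04 for nuclear-encoded respiratory subunits, and -1.51 and -2.33 for mitochondrial transcripts. Of the 70 respiratory subunits 61 fell in co-culture, and all 12 mitochondrial transcripts did. Microglia and macrophage markers moved in the same contrast: of 8 tested, 6 fell and 1 rose (median -1.68), with a summed level of 31.6 and 19.3 CPM in normoxic and 11.03 and 7.08 CPM in hypoxic co-cultures. Their part in the co-culture changes was not tested.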

How the data were processed

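Raw read counts per gene, 1 column per library, were deposited by the authors for 55487 Ensembl genes; all columns of the table used matched a label. Per the submitters' processing notes the tools were Trimmomatic 0.36, STAR 2.6, Picard 2.17.1, SAMtools, HTSeq 0.9.1 and deepTools with the build mm10; their roles, the annotation and the use of strand are not given in the sources used here. Symbols and coordinates came from GENCODE vM21 (mm10), which held 55141 of the identifiers. Library totals of the 4 monocultures ran from 17638000 to 27238900, and their number limits the precision. The series' other count tables were not used here.

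The 8 GL261 libraries (alone or with BV2, normoxia or hypoxia) entered 1 fit in edgeR 4.0.16 (R 4.3.3): filterByExpr with a minimum count of 10 and a minimum total of 15, TMM factors, 1 term per group and the quasi-likelihood test, with Benjamini-Hochberg adjustment over all tested genes and 0.05 as threshold. Normoxic and hypoxic monocultures were contrasted within it; the standard error is the log2 change divided by the square root of the F statistic. BV2 was compared in a fit of the 16 libraries of that table. The biological coefficient of variation was 0.13 over the 8 GL261 libraries and 0.15 over the 4 monocultures alone. Overlap with other genes was measured as shared 75-base words of GENCODE transcripts and as exon bases overlapping a gene on the other strand. The text above does not flag every case. Overlap on the other strand was 22.5% of exon bases for Higd1a, 23.6% for Impa2 and 19.6% for Fabp3. It was 17.3% for Sqstm1 and 11.6% for Loxl3, and Fabp3 shares 24.3% of its words. The code was tested on simulated data. Alternatives were DESeq2 1.42.0, its size factors in edgeR, a mean CPM of at least 5, no filter beyond 1 count, the monocultures alone, a replicate block and leaving out each library.

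Genes named were key genes of 31 lists, the called member with the largest rise and fall of each list, the 8 largest rises and falls among called genes whose groups did not overlap, whose average log2 CPM reached 4 and which had no predicted-gene name, and 5 interactions with BV2 per direction; marker genes, genes named for shared sequence or for 0 reads, and those of the closing lists were added after their values were seen. Members and lists were chosen with earlier results of these data known. Some genes that this rule picks are not reported here.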

Additional observations from a re-analysis of the deposited data

Results flagged for a closer look

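These 10 genes had the largest interaction values between GL261 and BV2 monocultures, 5 in each direction, among those past the threshold of the interaction test (edgeR, 16 libraries). The change was more positive in GL261, in log2 units, for Atoh8 by 6.23 (adjusted p = 4.45e-09), Cxcl10 by 4.37 (0.000397), Rtn4ip1 by 4.26 (5.7e-10), Thbs1 by 4.19 (0.000466) and Pif1 by 3.92 (3.63e-08). Atoh8 had few reads in hypoxic BV2, so the size of its value is uncertain. In BV2, Cxcl10 stood at 1.91 and 1.11 CPM in normoxia and 1.65 and 1.56 CPM in hypoxia, while Pif1, not called in GL261, went from 50.6 and 57.2 to 2.16 and 3.73 CPM.

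The change was more negative in GL261 for Selenbp1 (-6.29, adjusted p = 5.61e-10). Selenbp1 went from 11.9 and 9.98 to 1382 and 1121 CPM in BV2 and stood at 6.28 and 7.09, then 7.82 and 11.7 CPM in GL261; it shares 29.9% of its words with other genes, most with Selenbp2. The other 4 fitted values, -7.08 for Atp8b4, -6.71 for Nos2, -6.66 for Fbxo2 and -6.49 for Ttyh1, are fitted values only and are not read as a difference between the responses, since 1 of the lines had almost no reads. Atp8b4 and Nos2 entered the fit through BV2 and could not be tested in GL261; Nos2 went from 0.17 and 0.22 to 88.2 and 82.3 CPM in BV2 and stayed under 1 CPM in GL261. Without GL261 normoxic replicate 1 the value of Atp8b4 was -2.06 (adjusted p = 1), and without GL261 normoxic replicate 2 that of Nos2 was -6.05 (adjusted p = 0.169). Fbxo2 and Ttyh1 entered through GL261, where they fell (-0.99 and -1.09); in BV2 both had 0 reads in normoxia and under 1 CPM in hypoxia, so their fitted values depend on the prior count.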

How the results depend on the processing

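The count of genes changed by hypoxia in GL261 monocultures, 6777, was 6326 in DESeq2, 6796 with its size factors, 5878 of 10698 genes with a mean CPM of at least 5, 6927 with no filter beyond 1 count, 5852 in a fit of the 4 monocultures, and between 4846 and 6592 with 1 library left out; 4697 to 5789 of the original calls were kept with their direction in the last. A lone library is then assumed to vary like the other groups. With the replicate block the count was 7625; the numbers share only a label (correlation of deviations 0.0433), so this bears on no call. The interaction with BV2, 6322 genes, ranged from 5752 to 6685 over those alternatives and from 5334 to 6401 with 1 library left out. The interaction with co-culture, 0 genes, was 48 in DESeq2 (10 more positive and 38 more negative in monoculture) and 73 with no filter (18 and 55); the cause was not tested. It stayed at 0 under the others, the replicate block included, and with 1 monoculture library left out (0 to 0). Of 169 named genes, 33 changed side of the threshold under some alternative and none reversed. Of 62 list counts 40 stayed within 1.5 times of their value under every alternative; with the replicate block 4 interferon-stimulated genes rose and 9 fell, and 2 class I antigen presentation genes rose. With a mean CPM of at least 5, 3 angiogenic genes rose and 2 dioxygenases and 2 immediate early genes fell. Depth limits low genes, as 3 reads corresponded to 0.11 to 0.17 CPM.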

Other observations

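A further 3 groups, listed after their values were seen, moved largely one way; their counts are a description of these libraries. Of 20 NF-kappaB inhibitors, subunits and targets 15 rose and none fell, with a median log2 change of 1.55. Nfkbia, which holds the factor in the cytoplasm, went from 58.1 and 46.6 CPM in normoxia to 302 and 252 CPM in hypoxia (2.40 ± 0.20), and Relb, a subunit, from 33.7 and 24.6 to 205 and 159 CPM (2.64 ± 0.23). Nfkb1 stood at 39.95 and 46.1, then 73.7 and 47.3 CPM and was not called (adjusted p = 0.126).

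Of 19 heat shock and cytosolic chaperone genes 2 rose and 11 fell (median -0.82), in contrast to the chaperone Hspa5 of the endoplasmic reticulum. Besides Hspa8, Hsp90ab1 fell from 4101 and 3496 to 1687 and 1400 CPM (-1.30 ± 0.16) and Ahsa1, the activator of HSP90, from 133 and 118 to 21.7 and 23.4 CPM (-2.48 ± 0.14). Hsp90aa1 was not called (1305 and 969, then 1230 and 895 CPM) and shares 42.8% of its words with other genes. Of 81 cytosolic ribosomal protein genes 42 fell and none rose (median -0.53). Shared sequence was not measured for these genes, nor was their count repeated with a library left out. Their summed level was 59480 and 40830 CPM in the normoxic libraries and 33660 and 36840 CPM in the hypoxic ones, so the normoxic replicates lay further apart than normoxic replicate 2 from either hypoxic library.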
